A study of Mus musculus with 9 samples.

Results

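The genes described here are 9 transcripts of lymphoid homing and chemokine traffic: the receptors Ccr7, S1pr1, Cxcr4, Ccr9 and Cxcr3, and the chemokines Xcl1, Ccl27a, Ccl3 and Ccl4. They were chosen by symbol from a table of 24060 genes, and all 9 passed the filter on low values, Xcl1 only through its Rop7-III samples. The cells were unstimulated CD8 T cells from the spleens of Rop7-I, Rop7-II and Rop7-III transnuclear mice. Each line was cloned by nuclear transfer from 1 CD8 T cell specific for the Rop7 peptide of Toxoplasma gondii on H-2Ld. The lines were backcrossed onto the BALB/c background. In its figure legend for these data the paper calls the cells homozygous, a term it uses for the rearranged alpha and beta receptor chains. As each line stems from 1 cell, the receptor and any other property of that line cannot be told apart. Splenocytes of every line spent a night in culture with IL-2 (10 ng per ml) and no antigen, and cells positive for CD3, CD8 and the Rop7 tetramer were sorted to a purity of 90 to 95%. Each clone had 3 samples labelled as biological replicates, 9 samples in all, and the age of the mice is not given in the sources used here. The study ranked the clones by self-reactivity, with Rop7-III highest and Rop7-II lowest, and the question for the pairwise comparisons was whether resting transcripts differ along with it.

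Chemokine receptors and S1PR1 are receptors coupled to G proteins that steer lymphocytes along gradients of their ligands. A naive T cell enters lymph nodes with the help of CCR7, and leaves again by following sphingosine 1-phosphate through S1PR1. The transcription factors FOXO1 and KLF2 maintain this programme in resting T cells. CXCR3, by contrast, is typical of effector and memory T cells and of their entry into inflamed tissue, and XCL1, CCL3 and CCL4 are chemokines that activated CD8 T cells secrete.

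Values are in TPM, a transcript's share of the sample's total, in which the reads of a gene are divided by its length, so that levels can be compared between genes as well as between samples. Differences are of log2(TPM + 1), which draws those of weakly expressed genes towards 0. A gene passed when its Benjamini-Hochberg adjusted p in limma, fitted to all 9 samples, was under 0.01. The paper gives a typical number of reads per sample, but the depth of each sample cannot be read from TPM. The p-values measure the spread between samples that the labels do not tie to separate animals. All 12 CD8 T-cell markers were expressed, with a summed level of 8883 to 9736 TPM. Rop7-II replicate 1 stood apart: it had the highest level of the 9 samples for 14 of 14 B-cell markers and 12 of 13 myeloid markers, with summed levels of 1834 TPM and 675 TPM against 111 to 779 TPM and 38.4 to 246 TPM in the other samples. Rop7-I replicate 2 stood out in red cell and platelet markers, with a summed level of 2464 TPM against 48.0 to 498 TPM, and it was also the lowest Rop7-I sample for Ccr9 and the highest for Ccl27a and Xcl1, to which the part of these cells was not tested. In these sorted populations, fewer cells that express a gene and less RNA per cell cannot be told apart.

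Most of the 9 genes differed in at least 1 pair of clones. As they were chosen with earlier results of these data known, the shares of all tested genes beside them give scale and do not test the set. Between Rop7-III and Rop7-II, Cxcr4, Cxcr3, Xcl1 and Ccl27a were higher in Rop7-III and Ccr7 and Ccr9 were lower, which makes 6 of 9 past the test, 4 higher and 2 lower, against 12.3% of all tested genes, 6.39% higher and 5.89% lower. Between Rop7-III and Rop7-I, Xcl1 and Ccl27a were higher in Rop7-III, 2 of 9 against 4.85% (2.58% higher and 2.28% lower). Between Rop7-I and Rop7-II, Cxcr4 was higher and Ccr7 lower in Rop7-I, 2 of 9 against 7.53% (3.67% higher and 3.85% lower). At least a 2-fold difference on the log2(TPM + 1) scale was also reached by 3 of 9 genes between Rop7-III and Rop7-II (1.7% of all genes), by 2 between Rop7-III and Rop7-I (1.06%) and by 0 between Rop7-I and Rop7-II (0.949%). The median difference over the 9 genes was 0.31, 0.35 and 0.04 in these 3 comparisons, beside -0.02, -0.00 and -0.01 over all tested genes. The F test across the clones was passed by 5 of 9 genes, Ccr7, Cxcr4, Cxcr3, Xcl1 and Ccl27a, against 14.1% of all genes. With the level of myeloid markers as a covariate, chosen after seeing the data, 3 of the 9 genes passed between Rop7-III and Rop7-II, namely Cxcr4 (adjusted p = 4.92e-04), Cxcr3 (0.00171) and Ccl27a (0.00378).

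**Figure D1:**
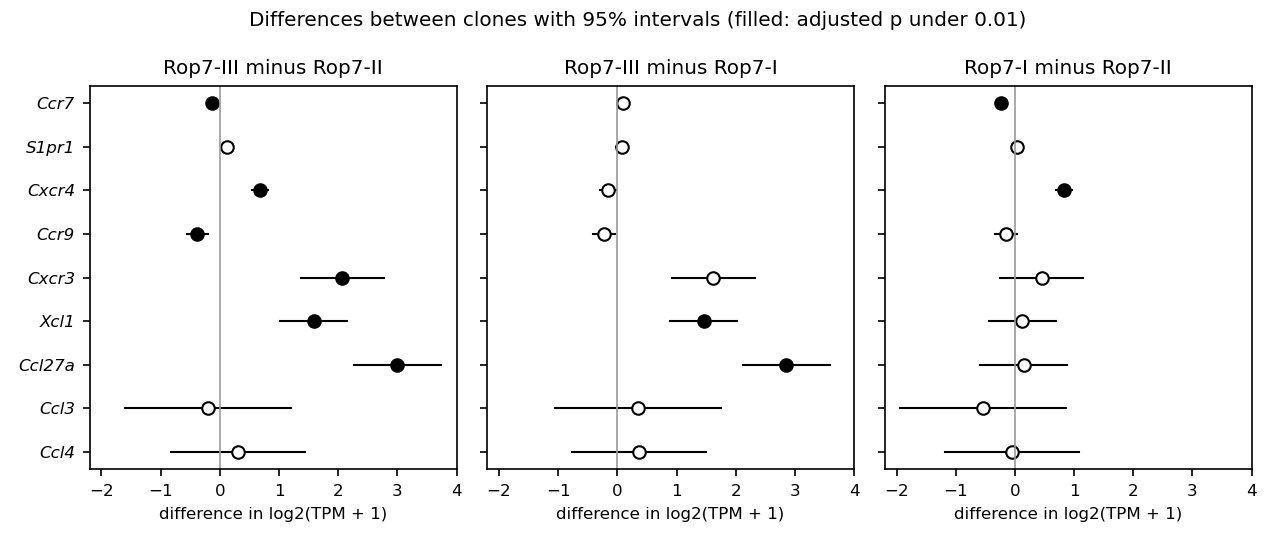
Differences in log2(TPM + 1) between clones for the 9 genes, with the clones compared named above each panel. Points are limma estimates with 95% intervals from 3 samples per clone, filled where the adjusted p was under 0.01; the widest intervals are those of Ccl3 and Ccl4, and the estimates of Ccl27a, at 3.00 and 2.85, are the farthest from 0.

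Ccr7 encodes the receptor for CCL19 and CCL21 that admits T cells to lymph nodes, and lies on chromosome 11 of GRCm38 from 99144196 to 99155077 on the minus strand. Its level was 679.89, 680.89 and 692.18 TPM in the Rop7-I samples, 788.33, 831.43 and 803.94 TPM in the Rop7-II samples, and 727.88, 732.22 and 744.67 TPM in the Rop7-III samples. The 3 clones did not overlap, with Rop7-II highest and Rop7-I lowest. Their means were 808 ± 21.8 and 684 ± 6.83 TPM (SD, n = 3), around 735 ± 8.72 TPM (SD, n = 3) in Rop7-III. By pair, clones did not overlap in 40.7% of all tested genes for Rop7-III and Rop7-II, 38.2% for Rop7-III and Rop7-I, and 35% for Rop7-I and Rop7-II. These shares hold for each such statement below that uses all samples of a clone, and the share in which all 3 clones separate was not counted. Rop7-I was lower than Rop7-II by a log2 difference of -0.24 (standard error 0.03, limma adjusted p = 5.22e-04), a call kept in all 21 alternatives. Rop7-III was lower than Rop7-II by -0.14 (standard error 0.03, limma adjusted p = 0.00655), a mean level 0.910 times as high. That second call missed the limit in 14 of 21 alternatives, with adjusted p up to 0.0298, and in 8 of the 9 fits that left out a sample: 0.0122, 0.0130 and 0.0111 without Rop7-I replicates 1, 2 and 3, 0.0187 and 0.0166 without Rop7-II replicates 2 and 3, and 0.0289, 0.0273 and 0.0150 without Rop7-III replicates 1, 2 and 3. Between Rop7-III and Rop7-I the difference was 0.10 (limma adjusted p = 0.0383).

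S1pr1 encodes the sphingosine 1-phosphate receptor for leaving lymphoid organs, and lies on chromosome 3 from 115710433 to 115715072 on the minus strand. It was measured at 806.25, 787.85 and 857.08 TPM for Rop7-I, 760.37, 837.26 and 782.36 TPM in Rop7-II, and 839.52, 863.33 and 889.53 TPM in Rop7-III. Every Rop7-III sample lay above every Rop7-II sample, as in 40.7% of all tested genes, and Rop7-I overlapped both. No pair passed the test. The difference of Rop7-III from Rop7-II was 0.12 with a 95% interval of 0.02 to 0.22 (limma adjusted p = 0.0720), that from Rop7-I was 0.08 (-0.02 to 0.18, limma adjusted p = 0.276), and that of Rop7-I from Rop7-II was 0.04 (-0.06 to 0.14, limma adjusted p = 0.565).

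Cxcr4 encodes the receptor for CXCL12, which holds lymphocytes in bone marrow and other stroma, and lies on chromosome 1 from 128588199 to 128592293 on the minus strand. The Rop7-I samples held 233.64, 265.49 and 262.65 TPM, the Rop7-II samples 147.44, 131.58 and 149.33 TPM, and the Rop7-III samples 232.6, 230.33 and 221.16 TPM. Rop7-II was below both other clones without overlap, at a mean of 143 ± 9.75 TPM (SD, n = 3) against 254 ± 17.6 TPM (Rop7-I) and 228 ± 6.06 TPM (Rop7-III). By pair, no overlap in either direction was found in 35% of all tested genes against Rop7-I and 40.7% against Rop7-III. Relative to Rop7-II, Rop7-III was higher by a log2 difference of 0.67 (standard error 0.06, limma adjusted p = 8.18e-05), and Rop7-I was higher by 0.83 (standard error 0.06, limma adjusted p = 3.75e-05). Both calls were kept in all 21 alternatives. Rop7-III samples lay below the Rop7-I samples, without overlap as in 38.2% of all tested genes, by a difference of -0.15 that did not pass (95% interval -0.29 to -0.02, limma adjusted p = 0.136).

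Ccr9 encodes the receptor for CCL25 that directs T cells to the small intestine and is also carried by thymocytes, and lies on chromosome 9 from 123678439 to 123784330 on the plus strand. Its samples read 227.67, 191.87 and 249.47 TPM for Rop7-I, 236.08, 248.96 and 255.22 TPM in Rop7-II, and 186.54, 185.22 and 196.42 TPM in Rop7-III. Rop7-III lay below Rop7-II without overlap, and Rop7-I spread across both. The means were 189 ± 6.12 TPM for Rop7-III and 247 ± 9.76 TPM for Rop7-II (SD, n = 3), a log2 difference of -0.38 (standard error 0.08, limma adjusted p = 0.00879). This call was close to the limit and missed it in 12 of 21 alternatives. It was lost without Rop7-I replicate 1 (adjusted p = 0.0152), without Rop7-II replicates 1, 2 and 3 (0.0115, 0.0232 and 0.0305) and without Rop7-III replicates 1, 2 and 3 (0.0336, 0.0341 and 0.0215), and with the level of myeloid markers as a covariate the adjusted p was 0.0555 while the difference was as large, at -0.40. Against Rop7-I the difference was -0.23 (limma adjusted p = 0.1002), which became 0.00893 without Rop7-I replicate 2, the lowest sample of that clone. The annotated span of Ccr9 overlaps other genes on the opposite strand, among them the tested genes Lztfl1 and Gm10052. Counting did not use strand. Stretches of 100 bases, the read length, that annotated Ccr9 transcripts share with another gene were found only in Gm17200, on the same strand. They were not found in Lztfl1 or Gm10052. Reads from the shared stretches cannot be assigned with certainty.

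Per length, S1pr1 and Ccr7 were the most abundant of the 9 genes, at ranks 153 and 165 of all genes by mean TPM, and their levels overlapped between samples. Ccr9 and Cxcr4 followed at ranks 680 and 737 and overlapped as well. The chemokines and Cxcr3 stood far below, between rank 9581 for Ccl27a and rank 11627 for Xcl1, with no sample above 13.88 TPM.

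**Figure D2:**
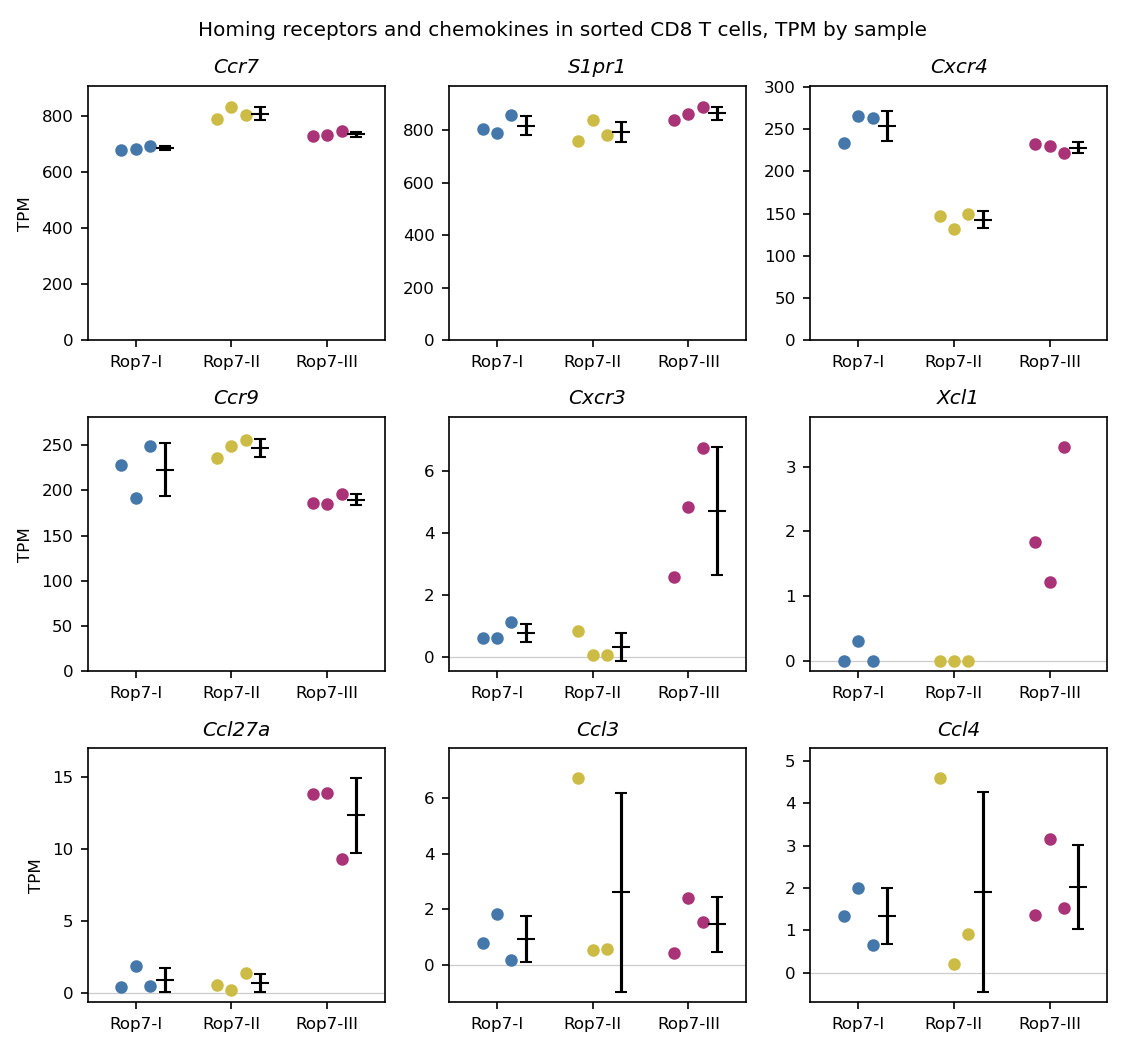
Level of each of the 9 genes in TPM on a linear axis, with the 3 samples of Rop7-I, Rop7-II and Rop7-III as points and the mean with SD as black bars (none for Xcl1, which is listed at 0 in several samples; some SD bars pass below 0). The Rop7-II samples of Cxcr4 lie under 150 TPM, below those of both other clones, and the Rop7-III samples of Ccl27a, between 9.3 and 13.88 TPM, lie above all others.

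Cxcr3 encodes the receptor for the interferon-induced chemokines CXCL9, CXCL10 and CXCL11, and lies on chromosome X from 101731535 to 101734269 on the minus strand. It was weakly expressed throughout, at 0.62, 0.62 and 1.13 TPM for Rop7-I, 0.86, 0.08 and 0.09 TPM in Rop7-II, and 2.59, 4.84 and 6.74 TPM in Rop7-III. All 3 Rop7-III samples exceeded the other 6, and their spread was wide. Their mean was 4.72 ± 2.08 TPM (SD, n = 3), against 0.343 ± 0.447 TPM for Rop7-II and 0.790 ± 0.294 TPM for Rop7-I. By pair, no overlap in either direction was found in 40.7% of all tested genes against Rop7-II and 38.2% against Rop7-I. Rop7-III was higher than Rop7-II by a difference of 2.07 (standard error 0.31, limma adjusted p = 0.00151), and this call was kept in all 20 alternatives in which the gene was tested. As the Rop7-II levels were near 0, the size depended on the TPM added, and the difference was 3.81 when 0.1 TPM was added in place of 1. The difference from Rop7-I was 1.62 (standard error 0.31, limma adjusted p = 0.01004), just over the limit. It was under the limit in 8 of 20 alternatives, among them the fits without Rop7-II replicate 1 (0.00404) and without Rop7-III replicate 1 (0.00726).

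Xcl1 encodes a chemokine that attracts dendritic cells bearing XCR1, and lies on chromosome 1 from 164931644 to 164935527 on the minus strand. It was listed at 0, 0.3 and 0 TPM in Rop7-I, at 0 TPM in each Rop7-II sample, and at 1.84, 1.21 and 3.31 TPM in Rop7-III. The Rop7-III samples were above all others, but no fold is given against samples listed at 0. Only these samples exceeded the 1 TPM needed for testing, so the gene was tested only through the clone where it was highest. Its calls and its place in the counts above depend on that filter. On the log2(TPM + 1) scale, whose differences here depend on the TPM added, Rop7-III was higher than Rop7-II by 1.59 (standard error 0.25, limma adjusted p = 0.00213) and higher than Rop7-I by 1.46 (standard error 0.25, limma adjusted p = 0.00642). The call against Rop7-II was lost in 1 of 20 alternatives, the level of myeloid markers as a covariate (adjusted p = 0.0120), where the difference was 1.77. The call against Rop7-I was lost in 9 of 20 alternatives, among them the fits without Rop7-I replicates 1, 2 and 3 (0.0303, 0.0161 and 0.0259), without Rop7-II replicate 3 (0.0103) and without Rop7-III replicates 1 and 3 (0.0250 and 0.0215).

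Since Cxcr3 and Xcl1 both rose in Rop7-III relative to Rop7-II, the windows around their RefSeq transcription starts, from 250 bases before to 50 after, are shown for comparison. They are from RefSeq on GRCm38.p6, minus strand, at chrX:101734098-101734397 and chr1:164935473-164935772. Capitals mark GGAAA, the core that NFAT factors bind, and CACCC, a box that KLF factors bind, read on both strands.
Cxcr3: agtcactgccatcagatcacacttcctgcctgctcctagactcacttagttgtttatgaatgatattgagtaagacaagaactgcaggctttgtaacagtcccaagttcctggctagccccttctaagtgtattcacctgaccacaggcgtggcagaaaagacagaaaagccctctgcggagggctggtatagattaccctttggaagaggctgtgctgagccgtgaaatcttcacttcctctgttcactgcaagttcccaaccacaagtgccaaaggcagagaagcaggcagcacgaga
Xcl1: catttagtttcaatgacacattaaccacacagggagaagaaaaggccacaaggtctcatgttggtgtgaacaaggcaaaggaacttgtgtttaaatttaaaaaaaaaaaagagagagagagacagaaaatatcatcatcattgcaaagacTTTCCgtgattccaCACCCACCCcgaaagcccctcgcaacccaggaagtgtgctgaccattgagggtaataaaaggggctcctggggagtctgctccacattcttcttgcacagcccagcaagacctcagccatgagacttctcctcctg
The Cxcr3 window holds neither set of letters, and the Xcl1 window holds 1 GGAAA and 2 CACCC, which share a base. Such matches are common: GGAAA is found in 61.3% and CACCC in 57.5% of 32851 windows of this length. Windows were found for 6 of the 9 genes, 8 windows in all, of which 6 hold GGAAA and 5 hold CACCC. Ccl27a has several of these windows. Those at chr4:41774052-41774351 and chr4:41774127-41774426 overlap and hold the same matches, which are counted in both. The T-box half-site, read as AGGTGT on both strands, is found in 0 of these 8 windows and in 13.7% of all windows. These counts are descriptions of letters and not of binding.

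Ccl27a encodes a chemokine known from skin keratinocytes, which attracts T cells with CCR10, and lies on chromosome 4 from 41769467 to 41774247 on the minus strand. Its level was 0.39, 1.88 and 0.5 TPM for Rop7-I, 0.54, 0.21 and 1.38 TPM in Rop7-II, and 13.79, 13.88 and 9.3 TPM in Rop7-III. The Rop7-III samples were far above the other 6, which overlapped each other. The mean of 12.3 ± 2.62 TPM (SD, n = 3) in Rop7-III stood against 0.710 ± 0.603 TPM for Rop7-II and 0.923 ± 0.830 TPM for Rop7-I, in each of which 1 sample held most of the level. The difference from Rop7-II was 3.00 (standard error 0.33, limma adjusted p = 2.63e-04) and that from Rop7-I was 2.85 (standard error 0.33, limma adjusted p = 7.68e-04). Both calls were kept in all 20 alternatives in which the gene was tested, but their size depended on the TPM added, and the differences were 4.20 and 3.87 with 0.1 TPM added in place of 1. Rop7-I and Rop7-II did not differ beyond their spread, with a difference of 0.15 and a 95% interval of -0.59 to 0.88.

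Ccl27a has near-identical copies in the mouse genome, which bears on how its reads could be assigned. Of its annotated coding sequences, the one closest to Ccl27b has 363 bases in 4 parts within chr4:41769498-41770190 on the minus strand of GRCm38. In it 3 bases differ from Ccl27b, an identity of 99.2%. The other coding sequences, of 264 to 495 bases, have identities of 41.8 to 98.3% with Ccl27b. Which form gave the reads cannot be read from TPM by gene. Bases 152 to 363 of the closest form are shown, with capitals at its 3 differing bases.
Ccl27a: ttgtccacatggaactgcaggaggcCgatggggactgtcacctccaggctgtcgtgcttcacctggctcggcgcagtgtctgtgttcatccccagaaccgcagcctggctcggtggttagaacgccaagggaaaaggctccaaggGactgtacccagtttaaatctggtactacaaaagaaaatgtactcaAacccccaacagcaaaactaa
Of all stretches of 100 bases, the read length, in the 8 annotated transcripts of Ccl27a, 40.4% occur unchanged in another gene. That share was 1.0% for Ccr9, 0.2% for Xcl1 and 0 for the other 6 genes. Ccl27b was listed at 0.22, 0 and 0 TPM for Rop7-I, 0.5, 0.24 and 0.37 TPM in Rop7-II and then 0.37, 1.09 and 1.28 TPM in Rop7-III, and passed in no pair. Its values were equal in all 9 samples to those of 3 other listed copies, so that these copies were not told apart. Ccl27a also overlaps Il11ra1, a subunit of the interleukin-11 receptor on the opposite strand, at 20.23 to 27.77 TPM and past the test in no pair. None of the stretches of 100 bases shared with another gene, read on both strands, was in an annotated Il11ra1 transcript. The level of Ccl27a is therefore uncertain in its split between copies.

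Near Ccl27a, 12 other tested genes had their centres within 500 kb of its start. Between Rop7-III and Rop7-II 2 of them passed, Fam219a with a difference of 1.19 (limma adjusted p = 2.83e-05) and Dcaf12 with 0.34 (8.66e-05), and between Rop7-III and Rop7-I 1 passed, Fam219a with 1.49 (1.38e-05). Fam219a, 0.2 Mb away, was measured at 6.9, 7.45 and 6.36 TPM for Rop7-I, 8.12, 9.8 and 8.4 TPM in Rop7-II and then 20.65, 20.64 and 22.31 TPM in Rop7-III. The genes lying closer to Ccl27a than Fam219a did not pass in either comparison. Of all tested genes, 12.3% and 4.85% passed in these comparisons. Among genes past the test with at least a 2-fold difference in any pair, Igfbp4 was the nearest to Ccr7, at 0.09 Mb, and exceeded its Rop7-II level in Rop7-III by 1.42 (limma adjusted p = 0.00141). By the same limits the nearest gene to Cxcr4 was Mgat5 at 1.1 Mb, higher than in Rop7-II by 1.17 in Rop7-III (limma adjusted p = 7.10e-05) and by 0.93 in Rop7-I (4.30e-04). For Ccr9, S1pr1, Cxcr3 and Xcl1 the nearest such genes lay farther off, at 4.777, 7.014, 7.189 and 14.465 Mb. Whether any of these distances is unusual was not tested.

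**Figure D3:**
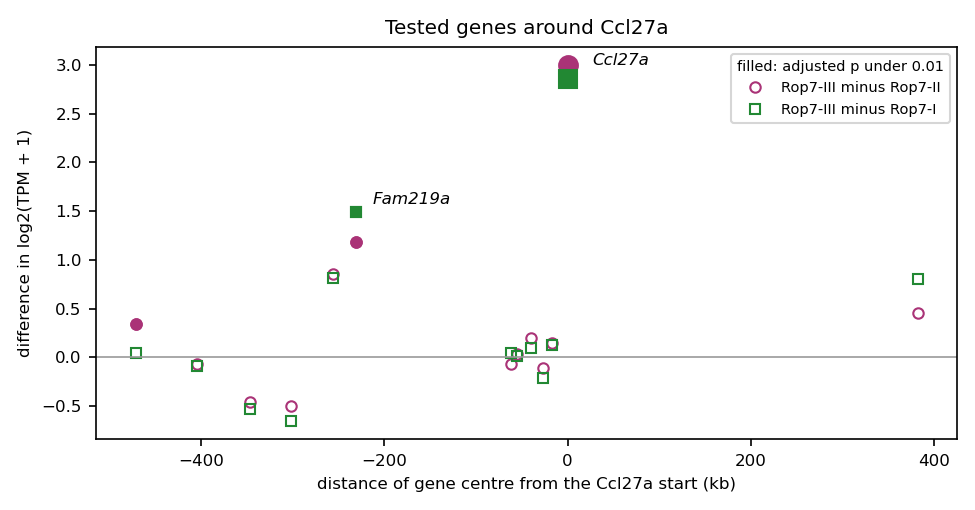
Differences in log2(TPM + 1) of the tested genes around Ccl27a against the distance of the gene centre from the Ccl27a start in kb, for Rop7-III minus Rop7-II (circles) and Rop7-III minus Rop7-I (squares), filled where the adjusted p was under 0.01. Ccl27a is drawn larger at 0 kb; Fam219a is the next highest, at 1.19 and 1.49, and the genes between them lie near 0.

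Ccl3 and Ccl4 encode inflammatory chemokines, and CCL3 binds the receptor CCR1. They are neighbours on chromosome 11, Ccl3 from 83647844 to 83649355 on the minus strand and Ccl4 from 83662584 to 83664683 on the plus strand. Ccl3 was measured at 0.8, 1.83 and 0.18 TPM for Rop7-I, 6.73, 0.53 and 0.57 TPM in Rop7-II, and 0.43, 2.42 and 1.53 TPM in Rop7-III. Ccl4 was measured at 1.35, 2 and 0.66 TPM for Rop7-I, 4.61, 0.21 and 0.92 TPM in Rop7-II and then 1.37, 3.16 and 1.54 TPM in Rop7-III. In both genes Rop7-II replicate 1 was the highest of the 9 samples, and no pair passed. With it, the clones overlapped. Without it, the clones still overlapped in Ccl3, whereas in Ccl4 the other Rop7-II samples lay below every Rop7-III sample. The share of all tested genes without overlap when this sample is left out was not counted, and the shares given above do not apply to it. The differences of Rop7-III from Rop7-II were -0.20 in Ccl3 (95% interval -1.597 to 1.207, limma adjusted p = 0.841) and 0.31 in Ccl4 (-0.82 to 1.45, limma adjusted p = 0.682). Without Rop7-II replicate 1 they were 0.58 (limma adjusted p = 0.356) and 0.94 (limma adjusted p = 0.0734), so that this sample set the sign for Ccl3 and most of the spread. The same sample was also highest in Ccr1, at 2.08 TPM against at most 1.13 TPM in the other 8, and in 12 of 13 myeloid markers, with Lyz2 at 485.32 TPM against 19.83 to 160.9 TPM. The summed myeloid markers ranged from 54.7 to 130 TPM in Rop7-I, from 73.8 to 675 TPM in Rop7-II and from 38.4 to 83.0 TPM in Rop7-III, and no myeloid or B-cell marker was at 0 in every sample. Rop7-II replicate 1 was also the highest sample for 6 of 10 NK-cell markers and for 9 of 18 genes induced early by T-cell receptor signals. With the level of myeloid markers as a covariate, the differences of Rop7-III from Rop7-II were 1.02 in Ccl3 (limma adjusted p = 0.376) and 1.35 in Ccl4 (0.137). The part of myeloid, B, NK or activated T cells in the Ccl3 and Ccl4 values was not tested.

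**Figure D4:**
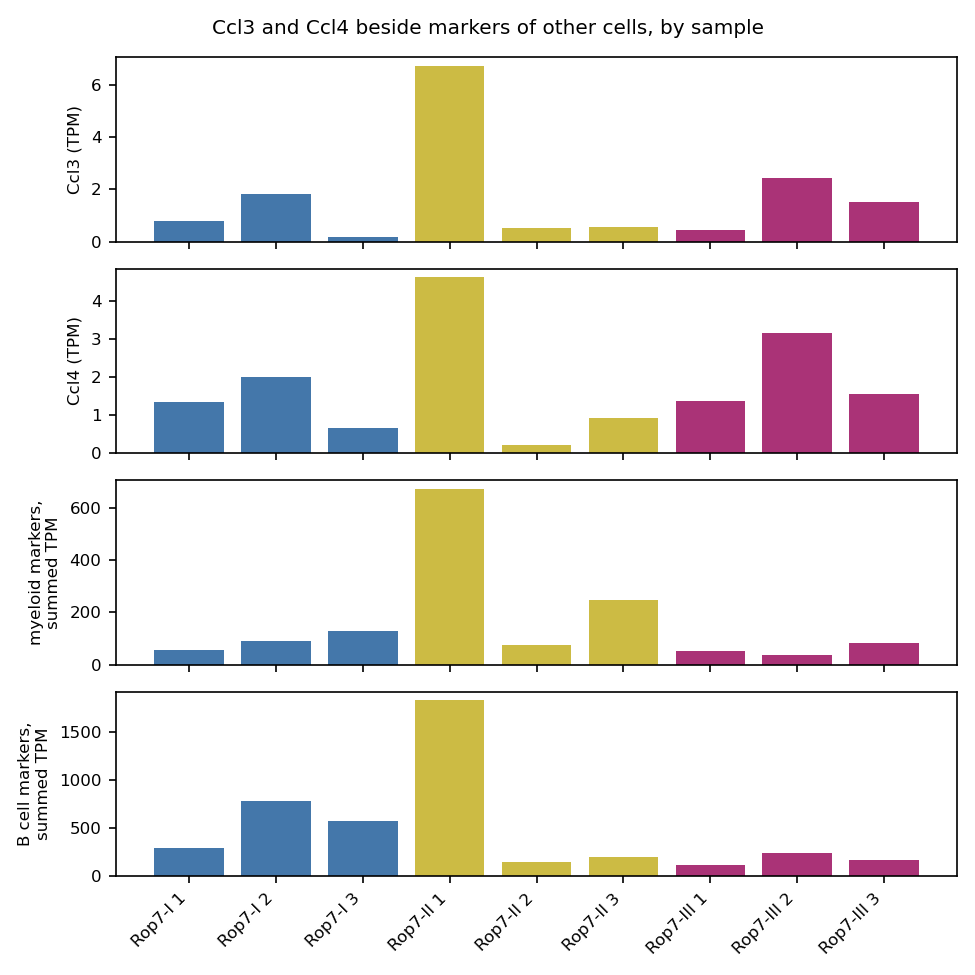
Bars from 0 give, for each of the 9 samples, the TPM of Ccl3 and of Ccl4 and the summed TPM of myeloid and of B-cell markers, coloured by clone. Rop7-II replicate 1 has the tallest bar in all 4 panels, at 6.73, 4.61, 675 and 1834 TPM.

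The partners of these genes were mostly weak in the sorted cells. The CCR7 ligands Ccl19 and Ccl21a and the CXCR3 ligands Cxcl9 and Cxcl11 were listed at 0 in all 9 samples, while Cxcl10 reached 0.34 TPM and the CXCR4 ligand Cxcl12 reached 0.07 TPM. The CCL27 receptor Ccr10 reached 0.16 TPM. The CCR9 ligand Ccl25, at 3.1 to 4.64 TPM, and the XCL1 receptor Xcr1, at 2.92 to 3.85 TPM, passed in no pair and overlapped between clones.

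Other genes of the pathway were taken from 4 lists of 155 genes in all, of which 110 were tested and 14 were listed at 0 in every sample. Between Rop7-III and Rop7-II, 10 were higher and 6 lower, between Rop7-III and Rop7-I 9 were higher and 2 lower, and between Rop7-I and Rop7-II 9 were higher and 10 lower, beside 12.3%, 4.85% and 7.53% of all tested genes. The median differences, -0.01, 0.04 and -0.04, were close to those of all tested genes. Of 21 other chemokine receptors, 12 were tested and 0 passed in any pair. Cxcr6, a receptor of tissue-resident and memory T cells, passed the F test of limma (adjusted p = 0.00830) with Rop7-I highest at 37.74, 33.68 and 32.81 TPM, against 15.91, 27.96 and 18.35 TPM in Rop7-II and then 19.76, 19.37 and 17.33 TPM in Rop7-III, but its pairs missed the limit. Rop7-III against Rop7-I passed in 7 of 21 alternatives and Rop7-I against Rop7-II in 3, and both passed without Rop7-II replicate 2 (4.37e-04 and 3.10e-04), while without Rop7-II replicate 1 the former passed (0.00324).

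Of 37 other chemokines, 12 were tested and 1 passed, Ccl5, which memory CD8 T cells store as transcript. It was at 9.03, 7.28 and 6.92 TPM for Rop7-I, 6.51, 2.42 and 3.48 TPM in Rop7-II, and 26.39, 29.64 and 30.36 TPM in Rop7-III. Rop7-III was above both other clones without overlap, by 2.61 over Rop7-II (limma adjusted p = 8.99e-05) and 1.77 over Rop7-I (0.00174). The call against Rop7-I missed the limit without Rop7-III replicate 2 (0.0108) or 3 (0.0110). Ccl5 lies 0.117 Mb from Ccl3, whose highest sample was Rop7-II replicate 1. Among 16 markers of memory-like CD8 T cells apart from Cxcr3 and Xcl1, 12 were tested. Between Rop7-III and Rop7-II 4 of them were higher, Ccl5, Eomes, Klrd1 and Klrk1, and 1 was lower, Id2. Of all tested genes, 6.39% were higher and 5.89% lower. Without passing, Cd44 and Il2rb were also higher, and Ly6c2, Nkg7, Gzma, Gzmb and Gzmm were lower. These markers were named after their values were seen. Ccl5 alone of the 12 passed between Rop7-III and Rop7-I, and Eomes alone between Rop7-I and Rop7-II. Of all tested genes, 4.85% and 7.53% passed in these comparisons. With the level of myeloid markers as a covariate, Eomes, Klrd1 and Klrk1 missed the limit between Rop7-III and Rop7-II (0.0479, 0.0304 and 0.0214), with differences of 0.91, 0.89 and 1.79 against 1.24, 1.05 and 2.21 without it. Eomes and Klrd1 also missed it when Rop7-I was left out of the fit (0.0119 and 0.0131).

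Genes of adhesion, egress and positioning moved in both directions. Of 40 genes, 32 were tested, and 6 were higher and 1 lower between Rop7-III and Rop7-II. Between Rop7-III and Rop7-I 4 were higher and 1 lower, and between Rop7-I and Rop7-II 6 were higher and 3 lower. Of all tested genes, 12.3%, 4.85% and 7.53% passed in these comparisons. Klf2 was higher in Rop7-II, at 1311 ± 91.8 TPM, than in Rop7-I at 817 ± 48.6 TPM (log2 difference -0.68 of Rop7-I from Rop7-II, limma adjusted p = 2.62e-04), and Rop7-III at 1166 ± 84.4 TPM was above Rop7-I by 0.51 (limma adjusted p = 0.00162; 0.0106 without Rop7-III replicate 2). Foxo1 was above Rop7-I in Rop7-III by 0.27 (limma adjusted p = 0.00777), a call lost when any of the 3 samples of either clone was left out (0.0205 to 0.0345).

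Il7r, the receptor for the survival factor interleukin-7, differed in every pair, from 300.25 to 333.19 TPM in Rop7-II through 473.48 to 533.47 TPM in Rop7-I to 730.03 to 771.16 TPM in Rop7-III. Rop7-III was higher than Rop7-II by 1.24 (limma adjusted p = 1.26e-06) and than Rop7-I by 0.55 (2.64e-04). Eomes, a T-box factor of memory CD8 T cells, was at 14.1 ± 2.88 TPM for Rop7-I, 6.82 ± 1.32 TPM in Rop7-III and, lowest, 2.34 ± 0.796 TPM in Rop7-II (SD, n = 3). Eomes was higher than in Rop7-II by 2.19 in Rop7-I (limma adjusted p = 1.88e-04) and by 1.24 in Rop7-III (0.00262; 0.0138 and 0.0134 without Rop7-III replicates 1 and 2). Gpr183, a receptor that positions lymphocytes by oxysterols, was highest in Rop7-I at 61.5 ± 6.78 TPM, against 31.0 ± 2.99 TPM in Rop7-II (limma adjusted p = 1.73e-04) and 35.5 ± 2.24 TPM in Rop7-III (8.47e-04). Cd69, which draws S1PR1 from the surface and marks recent activation, was at 5.56 to 10.08 TPM and passed in no pair, and the T-box factor Tbx21 did not exceed 0.28 TPM. Of 16 tested genes induced early by T-cell receptor signals, 0 passed as higher and 1 as lower between Rop7-III and Rop7-II. The shares of all tested genes were 6.39% and 5.89%.

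Of 57 genes of chemokine receptor signalling, 54 were tested. Between Rop7-III and Rop7-II, 3 were higher and 5 lower, and between Rop7-III and Rop7-I 4 were higher and 1 lower. Between Rop7-I and Rop7-II 3 were higher and 7 lower. Of all tested genes, 12.3%, 4.85% and 7.53% passed in these comparisons. Rgs3, which shortens signals of G proteins, was lower in Rop7-III at 27.2 ± 0.420 TPM than in Rop7-II at 57.0 ± 3.83 TPM (log2 difference -1.04, limma adjusted p = 4.36e-06) and in Rop7-I at 54.8 ± 2.41 TPM (-0.98, limma adjusted p = 9.72e-06). Pik3cg, the catalytic subunit of the PI3 kinase that G proteins activate, was lower in Rop7-II at 15.1 ± 1.28 TPM than in Rop7-I at 29.7 ± 1.01 TPM (limma adjusted p = 2.40e-05) and in Rop7-III at 29.1 ± 0.572 TPM (2.23e-05). Gnai2, the main inhibitory G protein alpha subunit of lymphocytes, was higher in Rop7-II at 704 ± 4.71 TPM than in Rop7-I at 559 ± 1.71 TPM (limma adjusted p = 5.91e-05) and in Rop7-III at 599 ± 16.3 TPM (3.12e-04). Rasgrp2, an exchange factor that activates integrins through RAP1, was lower in Rop7-I at 284 ± 7.88 TPM than in Rop7-II at 362 ± 7.17 TPM (limma adjusted p = 8.54e-05) and in Rop7-III at 341 ± 3.64 TPM (6.21e-04).

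**Figure D5:**
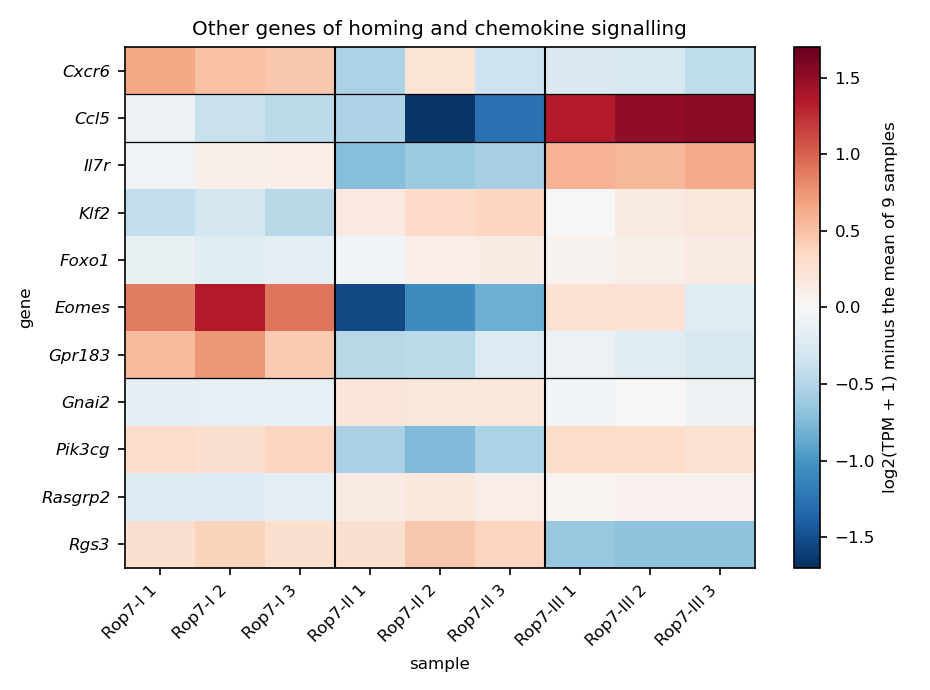
Heat map of other homing and chemokine signalling genes (rows) in the 9 samples (columns), coloured by log2(TPM + 1) minus the mean of the 9 samples. Ccl5 is highest in the Rop7-III samples, Eomes and Gpr183 in the Rop7-I samples, and Rgs3 is lowest in the Rop7-III samples.

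For the genes with at least a 2-fold call, the transcripts whose centred log2(TPM + 1) lay closest over the 9 samples were sought, by the root mean square difference. For Cxcr3 these were Top2a (0.20), Mki67 (0.21) and Ptgfrn (0.32). Top2a and Mki67, both known from dividing cells, were at 5.89, 8.38 and 10.17 TPM and at 6.6, 8.51 and 10.46 TPM in the Rop7-III samples, and at most 2.16 and 2.72 TPM in the others. For Xcl1 the closest were Olfr524 (0.22), Dusp4 (0.25) and Gch1 (0.26), with Dusp4 at 3.85 to 5.09 TPM in Rop7-III and at most 1.52 TPM in the other samples. For Ccl27a they were Ppp1r3e (0.55), A430093F15Rik (0.56) and Cd163l1 (0.57), farther from it than the closest genes of Cxcr3 and Xcl1. These are descriptions of likeness over 9 samples in which the clone sets most of the pattern. The genes were picked for their likeness in these same samples, so their similar values come with that choice. A link between them and the 9 genes was not tested.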

How the data were processed

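Libraries of polyadenylated RNA, made from 200 ng of RNA per sample, were sequenced by the authors with single-end reads, aligned and counted with RSEM 1.2.11 against RefSeq genes of mm10 (GRCm38), and deposited as TPM with 2 decimals, without strand. Per the labels the authors tested counts with DESeq2 1.8.1, and counts are not used here. The paper gives only a typical depth and that of each sample is unknown from TPM, so no interval for counting error is given. Samples were grouped by the clone in their labels.

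The scale was log2(TPM + 1), in R 4.3.3. Of 24060 genes, the 12115 whose maximum TPM exceeded 1 were fitted with limma 3.58.1, with a trend of the spread on the mean, to all 9 samples, and 3 pairs and an F test were adjusted by Benjamini-Hochberg over all tested genes. Every adjusted p is from this fit unless a setting is named. The script was tested on simulated data. Among 10544 genes that reached 1 TPM throughout, no pair of samples had exactly equal TPM in more than 0.313% of genes.

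The genes, lists and tests were chosen with earlier results of these data known. Named besides the 9 genes were the 4 genes of each list with the smallest F-test p, ligands and receptors of the 9, genes tied to them in naive T cells, copies and overlapping genes, the 3 most alike genes of those called with at least a 2-fold difference, and the nearest such gene on each side; memory-like and myeloid markers and Dcaf12 were named after their values were seen. Some genes under this rule are not reported here. Positions are from GENCODE M21 and start windows from RefSeq. Alternatives were another pseudocount, filter, scaling or spread model, a fit without the clone not compared, blocking on the replicate number, B-cell markers as a covariate, each sample left out, and other limits; the myeloid covariate was added after seeing the data.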

Additional observations from a re-analysis of the deposited data

How the results depend on the processing

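The count of the 9 genes past the test between Rop7-III and Rop7-II, 6, was 3 with a TPM of at least 1 required in every sample, which removed Cxcr3, Xcl1, Ccl27a, Ccl3 and Ccl4 from testing, 3 with a 2-fold minimum and 3 with the level of myeloid markers as a covariate, chosen after seeing the data; it was 4 to 5 with each sample left out. Between Rop7-III and Rop7-I, the count of 2 became 1 with 0.1 TPM added, 0 with that TPM minimum, 4 at an adjusted p under 0.05 and 1 to 3 with a sample left out (1 without Rop7-I replicates 1 or 3, Rop7-II replicate 3 or Rop7-III replicate 3), and between Rop7-I and Rop7-II 2 became 0 with a 2-fold minimum. The 5 genes past the F test became 2 with that TPM minimum and 3 to 6 with a sample left out (3 without Rop7-III replicate 3). For other genes of the pathway, 16 between Rop7-III and Rop7-II became 25 at an adjusted p under 0.05, 5 with a 2-fold minimum and 10 to 19 with a sample left out (10 without Rop7-III replicates 1 or 2). The 11 between Rop7-III and Rop7-I became 6 without the filter, 6 without the trend, 19 with sample weights, 24 at an adjusted p under 0.05, 1 with a 2-fold minimum and 4 to 14 with a sample left out, with at most 7 without any sample of Rop7-I or Rop7-III. The 19 between Rop7-I and Rop7-II became 11 when only the clones compared were fitted, 33 at an adjusted p under 0.05, 2 with a 2-fold minimum and 13 to 23 with a sample left out.

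Samples with the same replicate number did not deviate together, with correlations of deviations from -0.446 to 0.121, so the numbers were not taken as pairs. With the replicate number as a block, 5, 1 and 2 of the 9 genes passed in the 3 comparisons in the order above and 3 passed the F test, and 14, 8 and 15 other genes passed. No called difference changed sign under any alternative, and the scalings moved the median of all genes by less than the differences named. The causes of these changes were not tested, apart from the genes that a filter removed. Samples left out leave 2 in their clone. The number of reads behind a low TPM is not known for each sample beyond the typical depth in the paper, which bears on Cxcr3, Xcl1, Ccl27a, Ccl3 and Ccl4.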
